A study of Homo sapiens with 6 samples.

Results

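The tissue factor pathway is the set of proteins that start, relay and restrain blood coagulation at the cell surface. Of its genes, 9 were named in advance of this account, with earlier results of these data known, and TFPI was chosen by its log2 difference between knockdown and control arrays. They are TFPI, TFPI2, F3, F2R, F2RL1, THBD, PROCR, SERPINE2 and PLAT. A gene was read from a row of the expression table that the platform annotation assigned to that symbol alone, taking the row with the highest mean over the arrays where there were several. This gave 8 of the 9 genes among 14232 genes in all, each with a single row. F2RL1, which encodes the protease-activated receptor PAR2, was not analysed here, since the annotation gave its symbol to no row. The values that chose TFPI are the values described below, so the genes of the pathway are described without p-values.

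The arrays were hybridised with RNA from Ishikawa H cells, an established line from a well differentiated (Grade 1) endometrioid adenocarcinoma, labelled as carrying the p53 mutation G186T in both groups. MTDH knockdown cells carried a stable short hairpin RNA (shRNA) against MTDH, the gene of metadherin, and were compared with cells labelled MTDH control, with 3 arrays in each group. Puromycin-resistant single clones were expanded, and the labels do not say that the 3 replicates of a group came from separate clones. A difference between clones and an effect of the shRNA therefore cannot be told apart, and each p-value reflects no more than the spread among these 6 arrays. A value is the log2 expression value of a transcript cluster, the set of probes for a transcribed locus, so a step of 1 is a 2-fold change.

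Tissue factor, the product of F3, is the cell-surface receptor that binds coagulation factor VIIa and starts the extrinsic pathway. TFPI, tissue factor pathway inhibitor, blocks factor Xa and the tissue factor-VIIa complex through Kunitz domains, and TFPI2 encodes a related Kunitz inhibitor of the matrix that acts on plasmin. Thrombin made downstream signals through PAR1, the product of F2R, and is turned towards activation of protein C by thrombomodulin (THBD) and the endothelial protein C receptor (PROCR). SERPINE2 encodes protease nexin-1, an inhibitor of thrombin and plasminogen activators, and PLAT encodes tissue-type plasminogen activator, which makes plasmin. Tumor cells often display tissue factor, and in the endometrium it is known to be induced in the stroma by progesterone.

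The sequences just upstream of F3, TFPI and TFPI2 are shown because these were the genes of the coagulation trigger and its inhibitor family whose arrays did not overlap between the groups. Each is 250 bases that end at the base before the annotated start, from RefSeq on GRCh38.p14, which held such a sequence for 6 of the 9 genes. Capitals mark matches on either strand to the AP-1 motif TGANTCA or the GC box GGGCGG. A search for the E-box CACGTG, which overlaps neither, found no match in the 3 sequences. Promoters of this length held an AP-1 match in 6.57%, a GC box in 42.6% and the E-box in 6.34% of 35116 entries.
F3, chr1:94541760-94542009, minus strand: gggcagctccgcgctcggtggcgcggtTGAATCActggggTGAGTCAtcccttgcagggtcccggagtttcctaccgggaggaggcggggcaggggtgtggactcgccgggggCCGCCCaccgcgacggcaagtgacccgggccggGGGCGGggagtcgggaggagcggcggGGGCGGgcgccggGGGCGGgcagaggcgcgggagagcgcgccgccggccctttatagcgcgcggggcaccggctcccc
TFPI, chr2:187554436-187554685, minus strand: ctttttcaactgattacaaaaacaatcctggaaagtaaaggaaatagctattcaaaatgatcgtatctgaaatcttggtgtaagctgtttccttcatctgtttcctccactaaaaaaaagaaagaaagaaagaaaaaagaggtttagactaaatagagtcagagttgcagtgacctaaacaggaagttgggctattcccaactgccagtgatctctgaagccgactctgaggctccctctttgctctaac
TFPI2, chr7:93890754-93891003, minus strand: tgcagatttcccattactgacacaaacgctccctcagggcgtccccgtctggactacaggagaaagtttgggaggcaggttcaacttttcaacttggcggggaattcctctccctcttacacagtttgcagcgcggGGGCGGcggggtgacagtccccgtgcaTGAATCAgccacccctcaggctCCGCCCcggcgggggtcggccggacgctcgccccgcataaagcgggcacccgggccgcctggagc
The F3 sequence held 2 AP-1 matches and 4 GC boxes, with 34 CpG dinucleotides and a GC content of 78.0%. The TFPI sequence held no match to either motif, 2 CpG dinucleotides and a GC content of 38.4%. The TFPI2 sequence lay between them, with 1 AP-1 match, 2 GC boxes, 20 CpG dinucleotides and a GC content of 64.4%. The median over all entries was 11 CpG dinucleotides. A match is a string of letters and not evidence of binding. The files name no genome build, so the array rows were joined to these sequences by gene symbol.

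MTDH itself was lower in the knockdown cells, at 5.77, 5.89 and 5.84 against 6.89, 7.04 and 6.63 in controls. Its log2 difference was -1.02 (SE 0.17, limma adjusted p = 0.029), and MTDH did not pass without control replicate 1 (adjusted p = 0.16) or without knockdown replicates 1, 2 and 3 in turn (0.15, 0.12 and 0.11). It also missed the threshold with all rows of the table fitted (0.0997) and after median centring (0.096). Over all genes tested, 85 passed at an adjusted p under 0.05, which is 0.597%, with 53 higher and 32 lower. Control replicate 3 stood apart from the other arrays, with correlations across genes of 0.90 to 0.95 to them. Rows beyond row 9016 of the table, which hold THBD, PROCR and PLAT, read high on that array, with a median deviation of 0.17. The same rows read low on knockdown replicate 2, with a median deviation of -0.10. Among markers of the labelled cell type, EPCAM was at 7.32, 7.58 and 6.89 in controls and 7.74, 7.67 and 7.45 in knockdown arrays. KRT8 was at 8.45, 8.65 and 8.83 in controls and lower, at 8.18, 8.12 and 7.99, in knockdown arrays. KRT19 had the largest log2 difference of these markers, -0.87 (SE 0.19, limma adjusted p = 0.084), with the groups 0.57 apart. CDH1 was separated the other way by 0.12, with a log2 difference of 0.28 (SE 0.16). The hormone receptor genes ESR1 and PGR were dim, with means of 3.62 ± 0.10 and 2.91 ± 0.27 (SD, n = 3) in controls, below the lower quartile of gene means at 3.86. The summed linear signal of 11 epithelial and endometrial markers was 1144 to 1221 in controls and lower, at 995 to 1107, in knockdown arrays. KRT8, the brightest of the 11, weighs most in such a sum. Of the 11 log2 differences 7 were negative, where 60.7% of all genes were negative, and none passed. Negative differences were found for 5 of 5 platelet markers, 4 of 6 leukocyte markers and 8 of 9 markers of fibroblasts or smooth muscle, with medians of -0.21, -0.24 and -0.16, and none passed. The part of these values in the results below was not tested.

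TFPI was higher on all 3 knockdown arrays than on any control. Control replicates 1, 2 and 3 read 3.56, 3.86 and 3.41 on the log2 scale, and the knockdown replicates read 5.48, 6.03 and 5.51. Knockdown replicate 2 was the highest and control replicate 3 the lowest, and a gap of 1.62 separated the groups. The means were 3.61 ± 0.23 and 5.67 ± 0.31 (SD, n = 3), a log2 difference of 2.07 (SE 0.20), which is 4.19-fold. The TFPI signal of controls lay below the lower quartile of gene means, and folds of dim genes can be compressed on such arrays. This was the second highest log2 difference of the 14232 genes, after that of its chromosomal neighbour CALCRL. Leaving out any 1 array gave differences of 1.89 to 2.19. The RNA is that of a cell population, in which more cells with TFPI RNA and more TFPI RNA per cell cannot be told apart.

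TFPI2, the related Kunitz inhibitor, lay in the opposite direction. The 3 controls read 5.66, 5.70 and 5.19 (log2), and the 3 knockdown arrays read 5.13, 5.00 and 4.70. The groups did not overlap, but only 0.06 separated control replicate 3 from knockdown replicate 1. The means were 5.52 ± 0.28 and 4.94 ± 0.22 (SD, n = 3), and the log2 difference was -0.57 with a standard error of 0.20. Without control replicate 3 it was -0.74, and without knockdown replicate 3 it was -0.45.

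**Figure D1:**
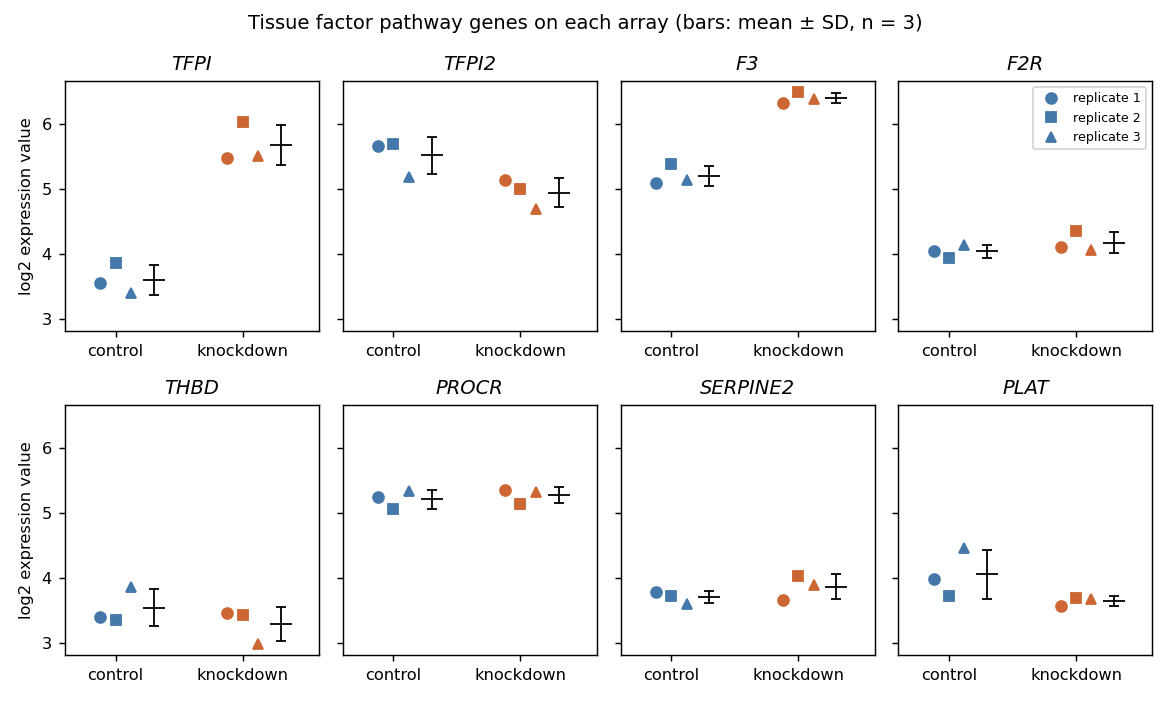
Log2 expression value (y axis) of the 8 measured genes on each of the 3 control (blue) and 3 knockdown (orange) arrays, with marker shape for the replicate number and black bars for the mean ± SD. TFPI sits at 3.41 to 3.86 in controls and 5.48 to 6.03 in knockdown arrays, F3 is also separated upwards, and F2R, THBD, PROCR and SERPINE2 overlap between the groups.

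F3, the gene of tissue factor, was also higher on every knockdown array. The 3 controls read 5.09, 5.38 and 5.13 on the log2 scale, against 6.33, 6.49 and 6.39 in knockdown cells. A gap of 0.95 separated the groups, more than 3 times the range within either. The means were 5.20 ± 0.16 and 6.40 ± 0.08 (SD, n = 3), a log2 difference of 1.20 (SE 0.16), which is 2.30-fold. RNA of the trigger of the extrinsic pathway and RNA of its inhibitor were thus both higher on the same arrays. RNA of a cell population cannot tell whether the same cells held both. Replicate 2 was the highest of its group for both genes. With 1 array left out, the F3 difference lay between 1.15 and 1.29.

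Of the protease-activated receptor genes, F2R did not differ beyond the spread between arrays. It read 4.05, 3.95 and 4.14 (log2) in controls, and 4.10, 4.36 and 4.07 with the shRNA. The groups overlapped, with a log2 difference of 0.13 and a standard error of 0.16, and the difference was 0.04 without knockdown replicate 2. The sister receptors F2RL2 (PAR3) and F2RL3 (PAR4) had log2 differences of -0.06 ± 0.25 and -0.17 ± 0.23 (SE), with adjusted p of 0.92 and 0.72. F2RL2 was at 4.06 on control replicate 1 and between 3.11 and 3.64 on the other 5 arrays.

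The receptors that turn thrombin towards protein C showed no separation either. THBD had log2 values of 3.40, 3.35 and 3.86 in controls, against 3.47, 3.42 and 2.99 in knockdown cells, a difference of -0.24 with a standard error of 0.20. Control replicate 3 was the highest and knockdown replicate 3 the lowest, and the other 4 arrays lay between 3.35 and 3.47. Without control replicate 3 the difference was -0.08. THBD was dim, with means of 3.54 in controls and 3.29 in knockdown arrays, both below the lower quartile of gene means at 3.86. PROCR had log2 values of 5.24, 5.05 and 5.33 in controls, against 5.35, 5.13 and 5.33 in knockdown cells, a difference of 0.06 with a standard error of 0.16. Replicate 2 was the lowest of its group for PROCR, and the difference changed sign to -0.01 without control replicate 2. THBD and PROCR are known from endothelium, whose defining genes PECAM1 and CDH5 had means of 3.16 ± 0.35 and 4.02 ± 0.40 (SD, n = 3) in controls. Of 10 endothelial markers 6 had a mean over all arrays below the lower quartile of gene means, and CLDN5 was the highest, at 5.29 ± 0.46 (SD, n = 3) in controls. Of the 10, 9 had a negative log2 difference, against 60.7% of all genes, with a median of -0.17, and none passed. Their summed linear signal was 138 to 212 in controls and 129 to 154 in knockdown arrays. All 10 except TIE1, KDR and EMCN lay beyond row 9016, in the rows that read high on control replicate 3 and low on knockdown replicate 2.

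SERPINE2 and PLAT belong to the plasminogen activator side of the pathway. SERPINE2 had log2 values of 3.78, 3.72 and 3.60 in controls, against 3.65, 4.04 and 3.89 in knockdown cells, with a difference of 0.16 and a standard error of 0.17. The groups overlapped, since knockdown replicate 1 lay below 2 of the controls. The control mean of SERPINE2, 3.70, lay below the lower quartile of gene means at 3.86. PLAT had log2 values of 3.99, 3.72 and 4.45 in controls, against 3.56, 3.69 and 3.67 in knockdown cells. Every knockdown array lay below every control, but by only 0.02 at the nearest, and the controls spread over a wider range than the difference itself. The means were 4.05 ± 0.37 and 3.64 ± 0.07 (SD, n = 3), a difference of -0.41 with a standard error of 0.20, which was -0.21 without control replicate 3. The knockdown mean of PLAT lay below the lower quartile of gene means.

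Groups that do not overlap were common in this table: 20.0% of all genes were separated, 8.81% upwards and 11.2% downwards. Among the 8 pathway genes 2 were separated upwards (TFPI and F3) and 2 downwards (TFPI2 and PLAT). The limma threshold, which 0.597% of all genes passed, was passed by 2 of the 8, TFPI and F3. Since the contrast chose the genes, nothing is read from these counts. F3 did not pass without control replicate 1 or without any of the knockdown replicates, where 1 of the 8 genes passed. The median log2 difference of the 8 genes was 0.10, against -0.08 over all genes.

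**Figure D2:**
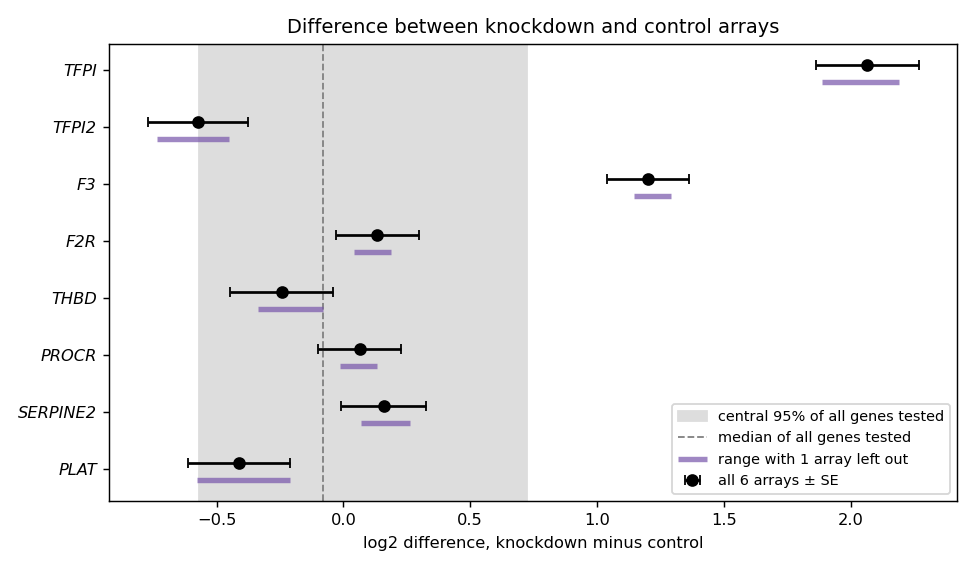
Log2 difference (x axis, knockdown minus control) of each gene with its standard error (black), the range when 1 array was left out (purple), and the span holding the central 95% of all genes tested (grey). TFPI at 2.07 and F3 at 1.20 lie outside the grey span of -0.57 to 0.72, TFPI2 at -0.57 lies at its lower edge, and the other 5 genes lie inside it.

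The other genes of coagulation and fibrinolysis were read in 7 lists set by their roles, though with earlier results of these data known. Of 102 genes named in them 90 were measured, of which 1 rose, none fell and 89 did not pass the test (limma, adjusted over all genes). Over all genes 0.597% passed. Counts this low in lists of this size are therefore not read as a result about their genes, here or below. At an unadjusted p under 0.05 there were 9 of the 90, below the share of 14.1% over all genes. With 35 positive and 55 negative log2 differences, the median was -0.12, where -0.08 was the median over all genes and 39.3% of all genes were positive.

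The gene that rose was SERPINI1, which encodes neuroserpin, an inhibitor of tissue-type plasminogen activator. It read 3.58, 3.63 and 3.35 (log2) in controls, against 4.59, 5.35 and 4.44 in knockdown cells. All 3 knockdown arrays were higher, with replicate 2 the highest, and the groups were 0.81 apart. The means were 3.52 ± 0.15 and 4.79 ± 0.49 (SD, n = 3), a log2 difference of 1.27 ± 0.24 (SE, adjusted p = 0.043). The control mean of SERPINI1 lay below the lower quartile of gene means at 3.86. The adjusted p was 0.18 without control replicate 1, 0.090 without control replicate 3, and 0.12, 0.13 and 0.056 without knockdown replicates 1, 2 and 3.

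The remaining 12 measured genes of the plasminogen system did not pass, and the list had a median of -0.19. The urokinase gene PLAU and its receptor gene PLAUR had log2 differences of -0.33 ± 0.22 and -0.23 ± 0.20 (SE). S100A10 and ANXA2, whose proteins form a surface complex that binds plasminogen and its activator, had the lowest values of the list, -0.65 ± 0.23 and -0.45 ± 0.19 (SE, adjusted p = 0.27 and 0.34). These 4 genes were named after their values were seen. S100A10 overlapped between the groups, and ANXA2 was separated by 0.03.

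None of the 20 measured genes of coagulation factors and their processing passed, with a median of -0.07 and 2 of the 20 at an unadjusted p under 0.05, where 14.1% of all genes were. The largest differences were 0.64 ± 0.29 (SE) for MCFD2, a cargo receptor subunit for factors V and VIII, and 0.43 ± 0.19 (SE) for VKORC1L1, a vitamin K epoxide reductase. MCFD2 was low on control replicate 3, at 6.0, where the other 5 arrays lay between 7.05 and 7.54. The genes for factors VII and X, the partners of tissue factor, had -0.29 ± 0.25 and -0.20 ± 0.23 (SE) for F7 and F10, also named after their values were seen. None of 9 anticoagulant genes passed, with a median of -0.10. The largest there were 0.34 for PROS1, the gene of protein S, and 0.33 for ANXA5, the gene of annexin A5, and both overlapped between the groups.

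Among 14 genes of thrombin receptors and their G proteins none passed, with a median of -0.11. GNA11, a G protein subunit downstream of such receptors, had -0.32 ± 0.20 (SE) and overlapped between the groups. Of 9 measured proteases that act on PAR2, 8 had negative differences, where 60.7% of all genes were negative, and none passed. All of them except TMPRSS11D lay beyond row 9016, in the rows that read high on control replicate 3 and low on knockdown replicate 2. TMPRSS2, a transmembrane serine protease, was the exception in sign, at 3.91, 4.13 and 4.46 in controls and 4.95, 5.01 and 4.66 in knockdown arrays. Its groups did not overlap and its difference was 0.71 ± 0.19 (SE), but its adjusted p was 0.17. KLK5, a kallikrein, had -0.24 ± 0.20 (SE).

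None of 12 other genes with Kunitz domains passed, with a median of 0.04. APP, whose longer isoforms hold a Kunitz domain, was at 8.01, 8.12 and 7.72 in controls, against 8.54, 8.50 and 8.42 in knockdown cells. The groups were 0.30 apart and the log2 difference was 0.54 ± 0.17 (SE, adjusted p = 0.22). SPINT3 had 0.38 ± 0.24 (SE) at a signal near the bottom of the table, with means of 2.16 and 2.54. The 13 measured genes of heparan sulfate and of the glycolipid anchor that holds a form of TFPI at the cell surface had a median of 0.03, and none passed. The highest were PIGK, a subunit of the enzyme that attaches the anchor, at 0.70 ± 0.25 (SE, adjusted p = 0.26), and PGAP1, which remodels the anchor, at 0.64 ± 0.18 (SE, adjusted p = 0.18). PGAP1 was separated between the groups by 0.29, and PIGK overlapped.

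**Figure D3:**
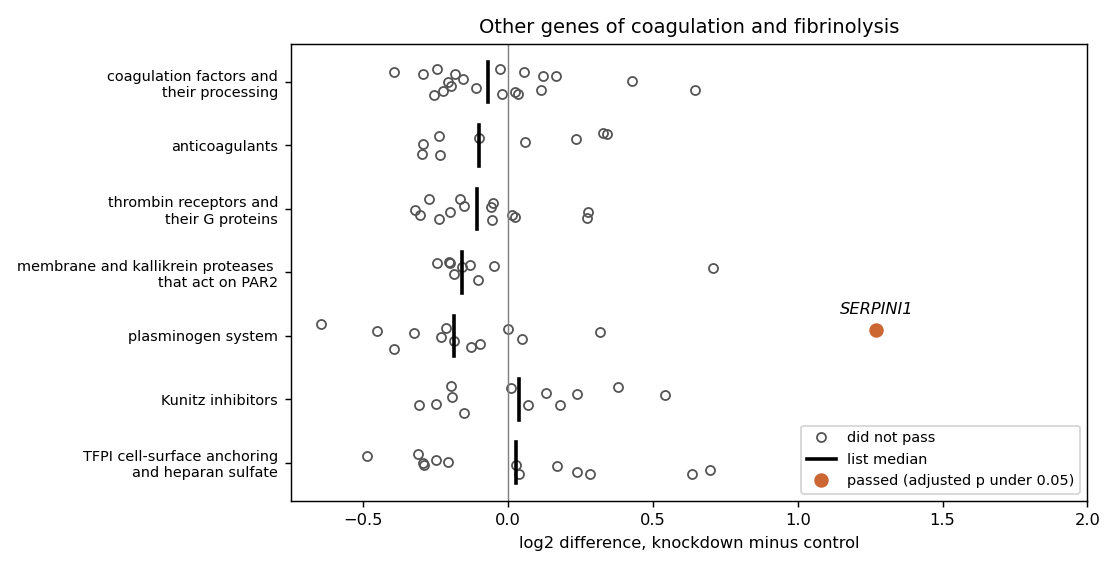
Log2 difference (x axis, knockdown minus control) of the 90 measured genes in the 7 lists (y axis), with open circles for genes that did not pass, a filled circle for the gene that passed and a black bar for each list median. SERPINI1 at 1.27 stands alone to the right, and the list medians lie between -0.19 and 0.04.

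The chromosomal neighbours of the pathway genes were compared with them among the measured genes. The gene next to TFPI on chromosome 2 was CALCRL, the receptor gene for adrenomedullin and calcitonin gene-related peptide, which had a log2 difference of 4.48 ± 0.17 (SE, adjusted p = 8.9e-07). On the other side of TFPI lay GULP1, an adaptor for engulfment of dead cells, with 0.89 ± 0.22 (SE, adjusted p = 0.13), and then DIRC1 with -0.85 ± 0.16 (SE, adjusted p = 0.054). Both were separated between the groups, in opposite directions, and did not pass. FAM171B had 0.40, ZSWIM2 -0.03 and COL3A1, a collagen gene, -0.04. Of these 6 neighbours 3 had positive differences, and CALCRL alone passed. ZSWIM2 and DIRC1 were dim, with control means of 2.15 and 3.40, below the lower quartile of gene means at 3.86. CALCRL was dim in controls too, at 3.17. COL3A1 had a control mean of 4.02, GULP1 of 5.00 and FAM171B of 5.65. Among the next genes outwards, WDR75 had 0.82 ± 0.29, ITGAV 0.65 ± 0.22 and ZC3H15 0.55 ± 0.19 (SE), and none of them passed. FSIP2 had 0.22 there, and COL5A2 and SLC40A1 were negative, at -0.13 and -0.04. Control means were 2.26, 3.86 and 3.80 for FSIP2, COL5A2 and SLC40A1, against 5.93, 6.20 and 7.45 for WDR75, ITGAV and ZC3H15. A change of the wider region was not tested.

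F3 had no neighbour of like size among the 3 measured genes on each side of it on chromosome 1. These ran from -0.03 to 0.59, with ABCD3, a peroxisomal transporter gene, the highest, and none passed. Further out, within 6 genes on each side, PTBP2 had 0.88 ± 0.25 and DNTTIP2 0.72 ± 0.29 (SE, adjusted p = 0.19 and 0.31). Of those further genes only BCAR3 was negative, at -0.27. The neighbours of TFPI2 on chromosome 7 ran from -0.14 to 0.41 without a call. PLAT differed in sign from several of its neighbours on chromosome 8. AP3M2, an adaptor subunit of vesicle traffic, had 1.02 ± 0.18 (SE, adjusted p = 0.038), and POLB, the gene of DNA polymerase beta, had 1.39 ± 0.21 (SE, adjusted p = 0.018). IKBKB, the gene of an NF-κB pathway kinase, had 0.50 ± 0.16 (SE, adjusted p = 0.23) and KAT6A 0.49 ± 0.17 (SE), while ANK1 and DKK4 had -0.36 and -0.28. Beyond them, within 6 genes of PLAT, SMIM19 had 0.91 ± 0.24, VDAC3 0.78 ± 0.25 and GPAT4 0.66 ± 0.23 (SE). GINS4 had 0.30 there, SLC20A2 0.16 and NKX6-3 -0.14, and none of these further genes passed. With 1 array left out, AP3M2 passed only without control replicate 2, and POLB lost its call without control replicate 1 or any of the knockdown replicates, with adjusted p up to 0.17 and 0.12. Both calls were lost with all rows of the table fitted (adjusted p = 0.12 for AP3M2 and 0.096 for POLB). The AP3M2 call was also lost after quantile normalization (0.066), median centring (0.064) and quantile normalization in 2 parts (0.063). Over the 522 measured genes of chromosome 8 the median log2 difference was 0.09, against -0.08 for the genes of all other chromosomes. Medians were also positive on chromosomes 5, 2, 7 and 1, at 0.08, 0.05, 0.03 and 0.03. Of the genes of chromosome 8, 27 passed, 24 higher and 3 lower, which is 5.17% against 0.597% of all genes. The 6 neighbours of THBD were all negative, from -0.45 to -0.12, on chromosome 20, where the median was -0.18. Those of F2R ran from -0.11 to 0.66, those of PROCR from -0.46 to 0.16 and those of SERPINE2 from -0.33 to 0.53, and none passed. PLAT, THBD and PROCR lie beyond row 9016, where rows read high on control replicate 3 and low on knockdown replicate 2. TFPI, TFPI2, F3, F2R and SERPINE2, on chromosomes 2, 7, 1 and 5, lie in the rows up to 9016. In those rows control replicate 1 had a median deviation of -0.07 and knockdown replicate 2 one of 0.04. The part of these shifts in any of the chromosome medians was not tested.

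**Figure D4:**
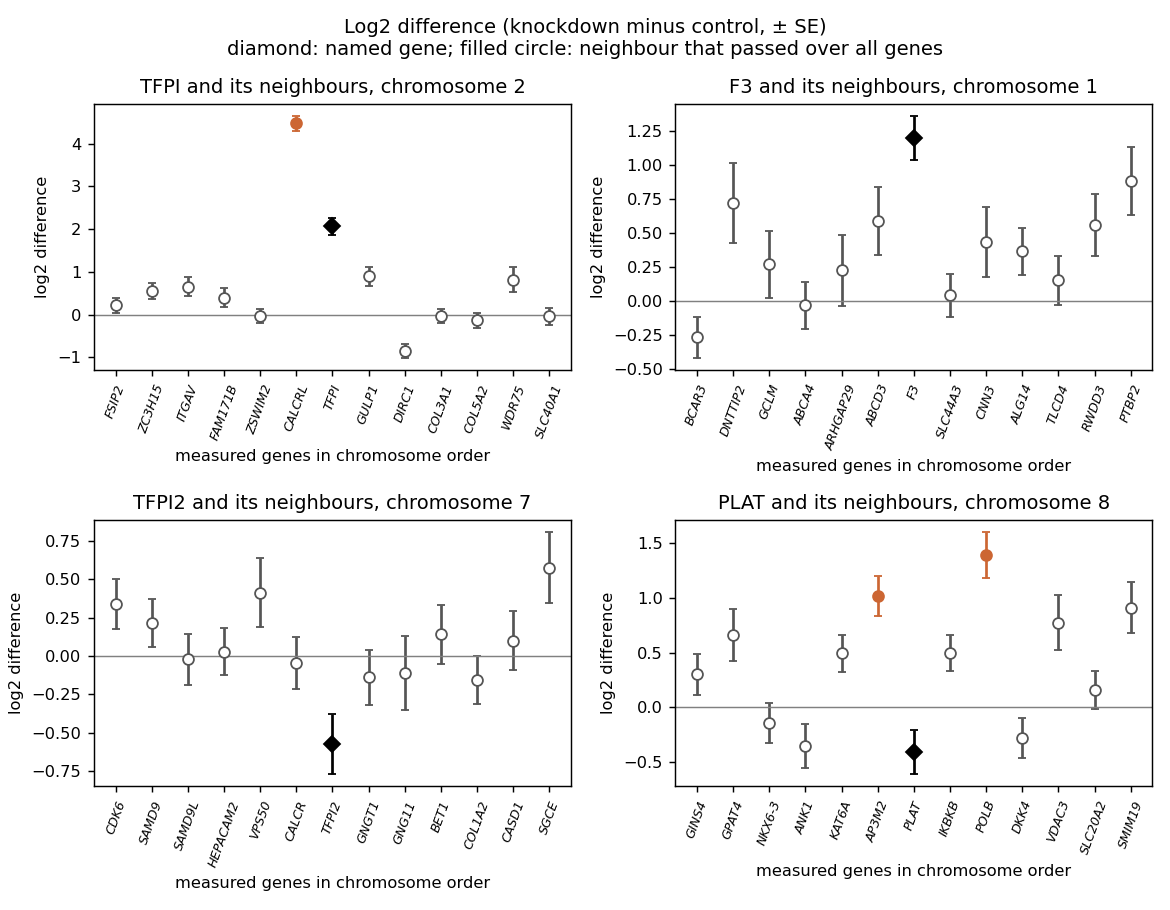
Log2 difference with its standard error (y axis, knockdown minus control) of TFPI, F3, TFPI2 and PLAT (diamonds) and the 6 measured genes on each side in chromosome order (circles, filled where the neighbour passed over all genes). CALCRL at 4.48 and TFPI at 2.07 stand above their neighbours, F3 at 1.20 lies above all of its own, and PLAT at -0.41 lies below neighbours that reach 1.39.

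The genes whose pattern over the 6 arrays was most like that of TFPI were taken by Pearson correlation among 2893 genes with a range of at least 1 log2 unit. They were CACNA2D1, a calcium channel subunit gene (r = 0.998), F3 (r = 0.992), VIRMA, a component of the RNA methylation complex (r = 0.991), EIF2AK3, the gene of the stress kinase PERK (r = 0.991), and LEMD1 (r = 0.991). Their log2 differences were 1.20, 1.20, 0.97, 0.77 and 1.25 in that order. With 6 arrays in 2 groups such a correlation mostly reads the difference between the groups, and 215 of the 2893 genes exceeded 0.9. CALCRL reached 0.982, and MTDH was at -0.91. Of the other pathway genes TFPI2 was at -0.73, PLAT at -0.74, THBD at -0.49, PROCR at 0.08, F2R at 0.58 and SERPINE2 at 0.66.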

How the data were processed

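RNA of Ishikawa H cells was measured on Affymetrix whole-transcript arrays after amplification and biotin labelling. The authors deposited log2 expression values per transcript cluster, made with Partek. For its version, background correction and normalization, the sources used here give nothing. Of 22011 rows, 14432 had exactly 1 gene symbol, 2408 several and 5171 none in the platform annotation, which left 14232 genes, 14205 of them with a chromosome in RefSeq. Of 17 rows shared by several symbols that name a listed gene, none named 1 of the 9 genes and none passed. Groups came from the sample titles.

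Knockdown and control arrays were fitted with limma 3.58.1 in R 4.3.3 on the deposited values with Benjamini-Hochberg adjustment over all genes, called at an adjusted p under 0.05. Precision was limited by 3 arrays per group. The fit was tested on simulated data. The 9 genes and the lists were chosen with earlier results of these data known. Named genes were the 9, MTDH, list genes that passed or else the 2 largest differences, 3 neighbours on each side and the 5 genes most like TFPI. The result of 1 listed gene is not reported here. Alternatives were the mean of rows, all rows, leaving out the 30% dimmest genes, quantile normalization, median centring, a robust prior with an intensity trend, the replicate block and leaving out each array. Quantile normalization in 2 parts of the table, split at row 9016 where control replicate 3 shifted, was chosen after seeing the data. Columns of the authors' own comparisons were not used.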

Additional observations from a re-analysis of the deposited data

How the results depend on the processing

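The log2 difference kept its sign in every alternative run for TFPI (1.89 to 2.19 with 1 array left out, 1.97 to 2.16 otherwise), TFPI2, F3, F2R, THBD, SERPINE2 and PLAT, and PROCR changed sign without control replicate 2 (-0.01). With 1 array left out the ranges were -0.74 to -0.45 for TFPI2, 1.15 to 1.29 for F3, 0.04 to 0.19 for F2R, -0.34 to -0.08 for THBD, -0.01 to 0.13 for PROCR, 0.07 to 0.26 for SERPINE2 and -0.58 to -0.21 for PLAT. Quantile normalization in 2 parts, an alternative added once the data had been seen, gave 0.98 for F3 and 0.20 for PROCR, moves larger than the SD pooled over both groups, though for PROCR smaller than the SD of 0.14 in controls. Without the 30% dimmest genes THBD, SERPINE2 and PLAT were left out and gave no value.

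The count of 85 genes that passed was 17 with all rows fitted, 48 after median centring and 364 with the replicate block, and ran from 12 (without control replicate 1) to 233 (without control replicate 2) with 1 array left out. It was 20, 22 and 20 without knockdown replicates 1, 2 and 3. Quantile normalization gave 35 higher and 34 lower genes, and median centring 29 and 19, in place of 53 and 32. Of the 90 genes in the wider lists, 1 passed, and 0 with all rows fitted, after quantile normalization, after median centring and after quantile normalization in 2 parts, 2 with the replicate block, and 0 to 1 with 1 array left out. The adjusted p of SERPINI1 ran from 0.013 to 0.18 over these settings. F3 did not pass with all rows fitted. The cause of these changes was not tested. Same-numbered arrays had deviations correlated at -0.10, 0.47 and 0.31. Control replicates 2 and 3 correlated best with the knockdown array of the same number, and control replicate 1 with knockdown replicate 2 (0.20). The sample titles state no pairs and the main fit used none. Whether the numbers mark pairs was not tested.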
